A study of Homo sapiens with 4 samples.

Results

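The cells described here are of the line OVCA420, grown from an epithelial ovarian cancer, that had been treated with TGF-β1 for 7 days and did or did not hold transcripts of *CCL5*. *CCL5* (ENSG00000271503, GRCh38 chr17:35871491-35880793, minus strand) encodes a secreted chemokine, also called RANTES, that attracts T cells, monocytes and other leukocytes. The cells were selected on their *CCL5* UMIs (unique molecular identifiers, each counting 1 captured transcript). Of 549 cells of the 7-day library with more than 200 genes, at most 20% mitochondrial (MT-) UMIs and at least 18000 UMIs, 128 had 2 or more *CCL5* UMIs and are called CCL5-positive. The 317 cells with 0 UMIs are called CCL5-negative, and the 104 cells with 1 UMI were kept apart. These are 549 of the 3170 cells read over the 4 libraries of the series.

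The series consists of 4 droplet-based (10x Genomics) scRNA-seq libraries of OVCA420 cells, untreated (Ctrl) or given 10 ng/mL TGF-β1 for 1, 3 or 7 days (1-day, 3-day and 7-day). TGF-β1 is a cytokine that induces epithelial–mesenchymal transition (EMT). All groups were 1 cell line with 1 library per time point, so cells are not replicates of the treatment and differences are given without a test. Intervals are 95% intervals and cover counting error only.

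*CCL5* is expressed by T cells and, in epithelial cells, after activation of the transcription factor NF-κB or of interferon regulatory factors. NF-κB is held in the cytoplasm by inhibitors such as the product of *NFKBIA*, and once released it binds short sites in the promoters of chemokine, adhesion and survival genes. Type I interferon, of which *IFNB1* encodes the β form, switches on a separate set of antiviral genes through the interferon-stimulated response element (ISRE).

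Only a part of each library was read here: 572 of the 2484 barcodes listed for 7-day and 712 of 2253 for 3-day. Median depth of the retained cells was between 31712 UMIs in Ctrl and 44018 at 7-day. Few cell barcodes were shared between libraries, from 1 to 7 per pair. The cells carried the keratin and *EPCAM* transcripts of an epithelial line and the ovarian and Müllerian factor *SOX17* (108.4 CPM in CCL5-positive and 122.4 CPM in CCL5-negative cells), while the ovarian carcinoma markers *PAX8*, *WT1*, *MUC16*, *WFDC2* and *MSLN* were each under 1 CPM in both groups. In the CCL5-positive cells 23 of 24 T and NK cell markers had no UMI and the 24 markers together gave 1 UMI (21 UMIs in the CCL5-negative cells). Of 14 myeloid and platelet markers 8 had no UMI, and the list summed to 11.2 CPM in positive and 9.71 CPM in negative cells, mostly from *CD68* and *CSF1R*. Of 6 B cell markers 4 had no UMI, and the list summed to 7.26 and 7.87 CPM, nearly all from *CD79A*. Of 10 fibroblast and endothelial markers, 8 had no UMI in the CCL5-positive cells.

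The same *CCL5* rule was applied to the other libraries as a background. No Ctrl cell of 844 was positive (0%, exact binomial interval 0 to 0.436). Of the treated cells, 3 of 900 1-day cells and 33 of 677 3-day cells (4.87%, 3.38 to 6.78) were. At 7-day the share was 23.3% (19.8 to 27.1). The summed *CCL5* UMIs gave 97.5 CPM (counts per 1000000 UMIs) at 7-day and 11.5 at 3-day, beside 1.48 at 1-day and 0.139 in untreated cells. After each cell had been thinned to 18000 UMIs, any *CCL5* UMI was found in 29.3% of 7-day, 6.65% of 3-day, 1.11% of 1-day and 0.237% of Ctrl cells, so the libraries also differed at equal depth. The part that free RNA in the droplets has in the cells with 1 UMI was not tested.

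The *CCL5* UMIs were concentrated in few cells. A single 7-day cell held 356 of the 2450 UMIs (14.5%), the top 5 cells held 31.6% and the top 10 cells 44.5%. The 14 cells with 50 or more UMIs held 53.3% of the transcripts, while the 104 cells with 1 UMI held 4.25%. Among CCL5-positive cells the median was 6 UMIs, with quartiles of 3 and 19. Just inside the limit were 30 cells with 2 UMIs, and just outside it the 104 cells with 1. At 3-day the concentration was higher, and 1 cell with 145 UMIs held 39.7% of that library's *CCL5*.

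**Figure D1:**
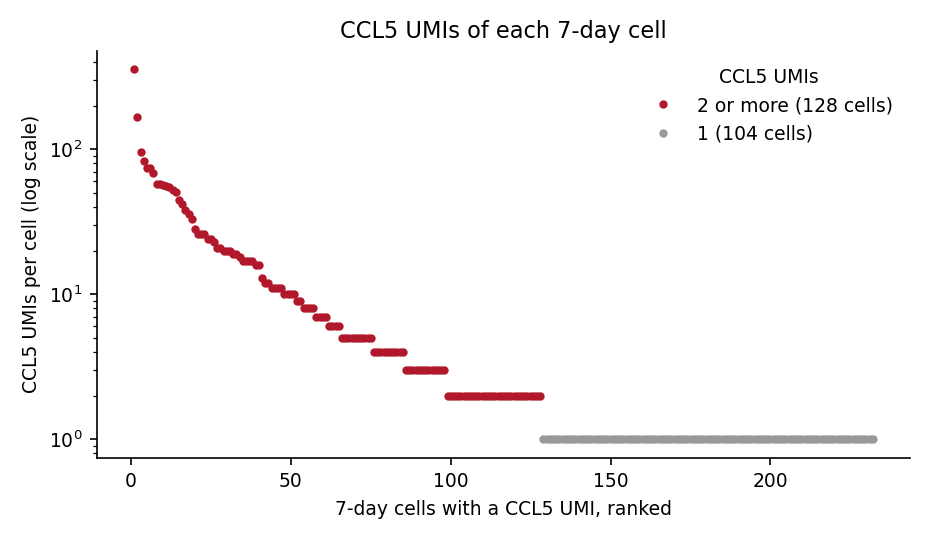
Each point is 1 of the 232 7-day cells with a *CCL5* UMI, ranked along the x axis, and the y axis gives its *CCL5* UMIs on a log scale. The curve falls from 356 UMIs to a plateau of 104 cells with 1 UMI.

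The groups were similar in quality measures but not in depth or cell cycle phase. Median depth was 49180 UMIs in CCL5-positive and 41304 in CCL5-negative cells, and it was 49190 in the cells with 1 UMI. The median mitochondrial share was 6.23% and 6.31%. Scrublet, a caller of droplets with more than 1 cell, marked 3 of 128 positive and 6 of 317 negative cells. By cell cycle scores on thinned cells, 81 of 128 positive cells (63.3%, 54.3 to 71.6) were called G1, against 91 of 317 negative cells (28.7%, 23.8 to 34.0). The 104 cells with 1 *CCL5* UMI gave 28.8% G1, near the negative cells. Phase therefore moved with the *CCL5* groups, and values within G1 cells are given below.

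To see which other transcripts accompanied *CCL5*, UMIs were summed over each group and compared as log2 ratios of CPM, positive to negative. With an average of at least 10 CPM over both groups, 7882 genes were compared, and their median log2 ratio was -0.05. Of these, 39 genes (0.495%) were at least 2-fold higher in CCL5-positive cells and 66 (0.837%) at least 2-fold lower, and 43.7% had a log2 ratio above 0. The groups were chosen by a single gene and the same cells give every other value, so these are descriptions of 1 library. The highest ratios included genes of inflammation, adhesion and matrix breakdown, and the lower genes included 11 of the S phase list and 4 of the G2/M list.

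Among genes averaging at least 20 CPM, the highest ratio was that of *CLDN18*, which encodes a tight junction claudin of stomach and lung epithelium. It stood at 129.6 CPM (120.9 to 138.8) in CCL5-positive and 18.1 CPM (15.9 to 20.5) in CCL5-negative cells, a log2 ratio of 2.84 (2.63 to 3.05). Over all retained cells of each library *CLDN18* went from 18.7 CPM without TGF-β1 down to 2.37 at 1-day, and was 6.02 at 3-day and 47.2 at 7-day, the highest of the 4 libraries. In thinned cells its distribution overlapped between the groups: the median was 0 UMIs in both, and the highest cell had 40 UMIs among positive and 11 among negative cells. At equal depth 45.3% of positive cells and 15.8% of negative cells had a *CLDN18* UMI.

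*MMP9*, a gelatinase that degrades basement membrane collagen, was 210.9 CPM (199.7 to 222.5) against 32.3 (29.3 to 35.5), a log2 ratio of 2.71. At equal depth the groups still overlapped: 73.4% of positive and 28.1% of negative cells had an *MMP9* UMI, with medians of 2 and 0 UMIs. Its level by library was 2.08 CPM without treatment, then 4.16, 16.5 and 81.0 CPM with increasing time. *ITGA5*, the fibronectin receptor subunit, was 71.0 against 21.0 CPM, a log2 ratio of 1.76 (1.54 to 1.98), and *ADAM19*, a membrane protease, was 66.5 against 29.1 CPM, a log2 ratio of 1.19.

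Below that level, and named after their values were seen, *MMP1* and *MMP10*, which encode a collagenase and a stromelysin, had larger ratios than *CLDN18*. *MMP1* was 33.3 against 2.21 CPM (log2 ratio 3.92) and *MMP10* 31.6 against 3.09 CPM (3.35). These transcripts came from few cells: 1 cell held 46.0% of the *MMP1* UMIs of positive cells, and 5.47% of positive and 3.15% of negative cells had a UMI at equal depth. For *MMP10* these shares were 13.3% and 3.79%. At the other end *AQP5*, a water channel of secretory epithelium, was 6.00 against 22.7 CPM (log2 ratio -1.92), with a UMI in 6.25% of positive and 22.1% of negative cells at equal depth.

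Among inflammatory genes, *CCL2*, the monocyte attractant chemokine, was 276.7 CPM (263.9 to 289.9) against 85.3 (80.5 to 90.4), a log2 ratio of 1.70. At equal depth 52.3% of positive and 31.2% of negative cells had a *CCL2* UMI, and 10 cells held 59.1% of the UMIs of positive cells. Untreated cells had no *CCL2* UMI, and the treated libraries had 1.39, 22.9 and 125.3 CPM with increasing time. *PTGS2*, the inducible cyclooxygenase of prostaglandin synthesis, was 119.2 against 36.7 CPM, a log2 ratio of 1.70 (1.53 to 1.87). *ICAM1*, the leukocyte adhesion molecule, was 46.4 against 21.3 CPM, a log2 ratio of 1.12 (0.88 to 1.36). Antagonist and ligand genes were also higher: *IL1RN*, the interleukin-1 receptor antagonist, had a log2 ratio of 1.11 and *TNFSF15*, a TNF family ligand, one of 1.51. *C15orf48*, which encodes a small mitochondrial protein induced in inflammation, was the most abundant of the higher genes at 950.0 against 329.5 CPM, and 96.9% of positive and 89.3% of negative cells had it at equal depth.

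The remaining genes at the top had varied roles. *G0S2*, an inhibitor of the lipase that breaks down stored fat, was 331.3 against 71.4 CPM (log2 ratio 2.21), with 43.0% and 20.2% of cells holding a UMI. The cystatins *CST4* and *CST1*, secreted inhibitors of cysteine proteases, had log2 ratios of 2.05 and 2.02. Among positive cells, 1 cell held 13.0% of the *CST4* UMIs and 1 cell 14.0% of the *CST1* UMIs. The 10 cells with most held 55.5% and 64.5%. *CST1* and *CST4* share near-identical sequence, so reads of 1 gene may have been counted for the other or left out. *SLC7A2*, a transporter of arginine, had a log2 ratio of 1.40, *BMP2*, a ligand of the TGF-β superfamily, 1.20, *TP53INP2* 1.33, *RASGRP3*, a Ras activator, 1.29, and *SLC16A3*, a lactate exporter, 1.14.

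The lowest gene averaging at least 20 CPM was *AXL*, a receptor tyrosine kinase. It stood at 12.8 CPM (10.2 to 15.9) in positive and 37.4 (34.3 to 40.8) in negative cells, a log2 ratio of -1.55 (-1.91 to -1.21). *E2F1*, the transcription factor of S phase entry, had 31.3 against 83.0 CPM (log2 ratio -1.41), *HMGB2* 76.5 against 201.2 CPM (-1.39) and the histone gene *HIST1H4C* 501.4 against 1288 CPM (-1.36). Replication and mitosis genes supplied most of the others, with *ASF1B*, *CENPU*, *FEN1*, *CDC20*, *CENPW*, *GINS2* and *RFC4* between -1.29 and -1.19. *ID1*, an inhibitor of helix-loop-helix factors that TGF-β and BMP signals regulate, had a log2 ratio of -1.20, and *CBR3*, a carbonyl reductase, and *CTNNAL1*, which encodes a catenin-like protein, had -1.24 and -1.20.

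**Figure D2:**
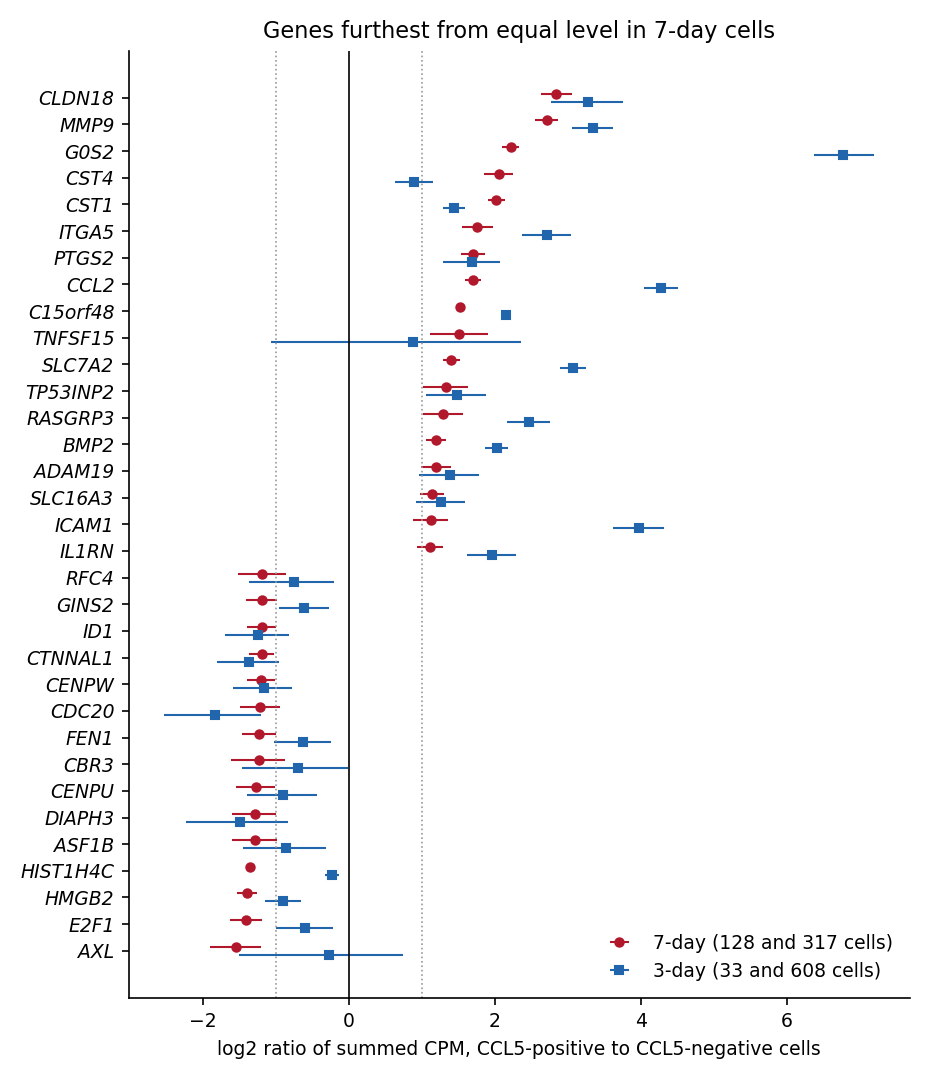
Log2 ratios of summed CPM in CCL5-positive to CCL5-negative cells (x axis) of 33 genes, as red points for 7-day and blue squares for 3-day, with 95% counting intervals and dotted lines at 2-fold. *CLDN18* is highest at 7-day (2.84) and *G0S2* highest at 3-day (6.77), and *AXL* is lowest at 7-day (-1.55).

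Other secreted and checkpoint genes stood nearer to equal. *CXCL8*, the neutrophil attractant chemokine, was 508.5 against 490.1 CPM (log2 ratio 0.05), and *LGALS1*, galectin-1, was 164.0 against 154.1 CPM (0.09), with -0.45 (-0.63 to -0.27) in G1 cells. *CD274*, which encodes the checkpoint ligand PD-L1, was 14.7 against 9.93 CPM (0.56, 0.17 to 0.96), but 0.11 (-0.47 to 0.69) in G1 cells. *LGALS3*, galectin-3, was 76.1 CPM in positive cells, with a log2 ratio of -0.32 to negative cells, and *COL1A1*, collagen I, was 11.5 against 17.4 CPM (-0.60). None of these 5 reached 2-fold. Of 74 genes within 1 Mb of *CCL5* on chromosome 17, 34 had no UMI in either group and 16 passed the filter, with log2 ratios from -0.68 to 0.36 and none at 2-fold. Of these 16, 5 were above 0, with *MMP28* highest (0.36, 0.07 to 0.65). The others included *RAD51D* at -0.60 (-0.85 to -0.34) and *MYO19* at -0.56 (-0.70 to -0.42). The shares over all genes were 0.495% at least 2-fold higher, 0.837% at least 2-fold lower and 43.7% above 0. With shares this small, none of 16 at 2-fold does not set the neighbours apart. Neighbours below the filter did pass 2-fold. The chemokine gene *CCL3* was 7.89 against 1.03 CPM (50 and 14 UMIs, log2 ratio 2.94, 2.06 to 3.91). In the other direction, *RDM1* was 2.21 against 5.15 CPM (-1.22, -2.16 to -0.38).

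When cells were grouped by the number of *CCL5* UMIs, the step from negative to positive cells differed between genes. *CLDN18* was 18.1 CPM in cells with 0, 22.9 with 1, 54.2 with 2 to 4, 71.9 with 5 to 9 and 231 with 10 or more. *MMP9* gave 32.3, 50.1, 138, 243 and 268 CPM over the same 5 groups. *CCL2* did not follow this order, with 85.3, 45.5, 155, 109 and 475 CPM. *CXCL8*, near equal between the whole groups, gave 490, 451, 412, 238 and 731 CPM. *CST1* was already at 282 CPM with 2 to 4 UMIs and had 348 and 268 CPM in the groups above, and *CST4* (87.2 and 85.6 CPM), *TP53INP2* (36.1 and 29.8 CPM) and *SLC16A3* (88.4 and 103 CPM) likewise had similar levels with 2 to 4 and with 10 or more. Single cells weighed on the *CST1* levels: after thinning, 1 cell with 5 *CCL5* UMIs held 129 *CST1* UMIs and 1 with 11 held 138. *HMGB2* stepped down from 201 and 200 CPM to 95.9, 102 and 45.7 CPM. *AXL* gave 37.4, 35.2, 17.3, 12.4 and 8.52 CPM. The summed level of 26 NF-κB subunits and targets was 1996, 1993, 2307, 2307 and 2871 CPM in the same order, and that of 26 S phase genes 1517, 1345, 1027, 851.4 and 547.9 CPM. For *CLDN18*, *ICAM1*, *HMGB2* and *AXL* the cells with 1 UMI were close to the cells with 0. The summed levels of *CST1* (71.4 and 116 CPM) and *G0S2* (71.4 and 130 CPM) were already higher at 1 UMI. So were, among others, *PTGS2* (36.7 and 61.1 CPM), *MMP9* (32.3 and 50.1 CPM) and *CST4* (22.8 and 42.0 CPM), while *CCL2* was lower (85.3 and 45.5 CPM). The share of cells was not higher for *CST1*: at equal depth 37.5% of cells with 0 and 34.6% with 1 had a UMI. For *G0S2* these shares were 20.2% and 27.9%, and 1 cell with 1 *CCL5* UMI held 66 *G0S2* UMIs after thinning. For *PTGS2* the shares were 38.5% and 53.8%.

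**Figure D3:**
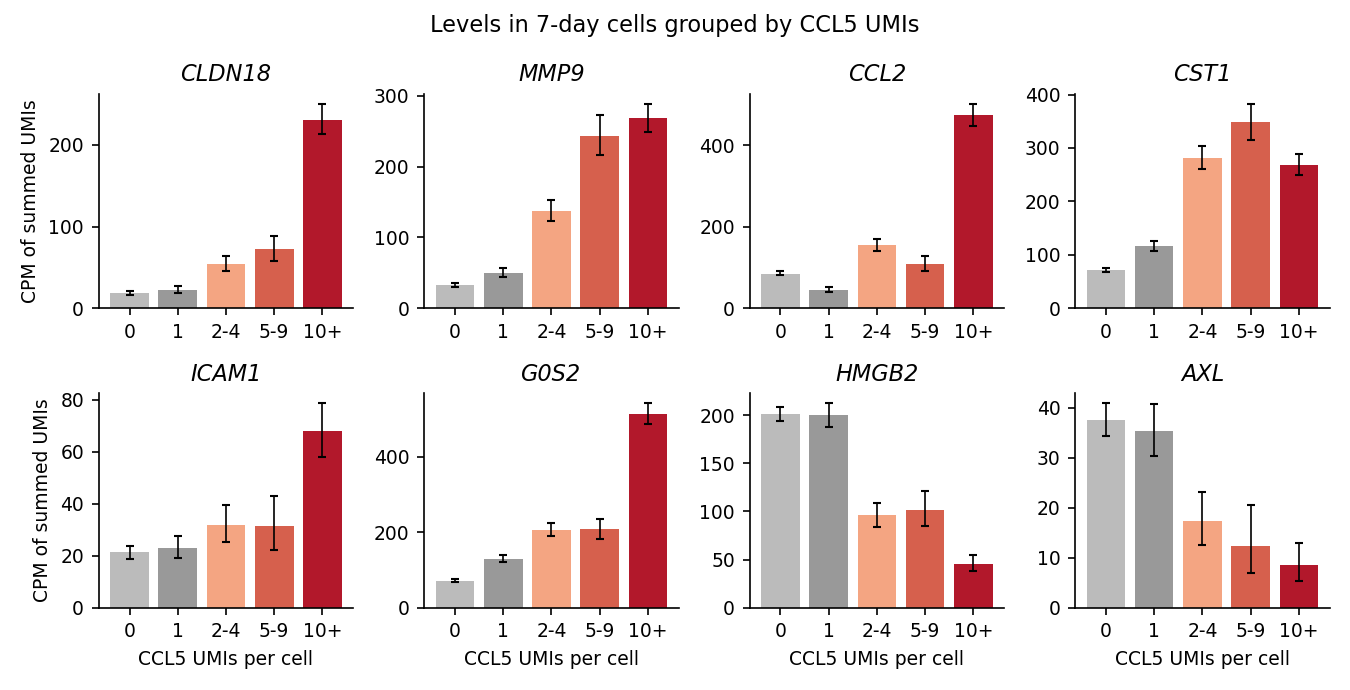
CPM of summed UMIs (y axis, from 0) of 8 genes in 7-day cells grouped by *CCL5* UMIs (x axis: 317, 104, 53, 24 and 51 cells), with exact Poisson 95% intervals as error bars. The bars for cells with 10 or more UMIs are highest for *CLDN18* (231 CPM) and *CCL2* (475 CPM) and lowest for *HMGB2* (45.7 CPM) and *AXL* (8.52 CPM).

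Of 27 chemokine genes, 9 passed the filter, and 1 of them, *CCL2*, was at least 2-fold higher in CCL5-positive cells. The list's median log2 ratio was 0.20, beside -0.05 over all genes. *CX3CL1*, the membrane-bound chemokine fractalkine, had 17.7 against 9.20 CPM (log2 ratio 0.94), and *CCL20* 66.0 against 48.9 CPM (0.43). Among the genes below the filter, *CCL3* had 7.89 against 1.03 CPM (2.94). The neutrophil chemokines *CXCL1*, *CXCL2*, *CXCL3* and *CXCL6* lay between -0.12 and 0.20. In G1 cells 5 of 9 chemokine genes were above 0, none was 2-fold higher and the median was 0.08.

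Of 30 NF-κB subunits and targets, 26 passed the filter, 22 had a log2 ratio above 0 and 2 (*PTGS2* and *ICAM1*) were at least 2-fold higher. Their median was 0.34. Survival and inhibitor genes of the pathway were among the higher ones: *SOD2*, the mitochondrial superoxide dismutase, was 136 against 71.1 CPM (0.93), *BIRC3*, an inhibitor of apoptosis, 50.3 against 31.9 CPM (0.66), *TRAF1* 0.64, *BCL2A1* 0.62 and *TNFAIP3*, the ubiquitin-editing inhibitor of the pathway, 0.47. The receptor gene *CD40* had 0.97 and *TNF* 0.44. The subunits went both ways, with *RELA* at 0.38, *NFKB1* at 0.14, *RELB* at 0.03, *NFKB2* at -0.02 and *REL* at -0.24. The inhibitor *NFKBIA* was lower (72.3 against 95.3 CPM, -0.40). In thinned cells the summed UMIs of the 30 genes had a median of 44 in positive, 35 in negative and 34.5 in 1-UMI cells, with ranges of 15 to 86 and 10 to 88 in positive and negative cells that overlapped almost wholly. In G1 cells 19 of 26 genes were above 0, 1 was at least 2-fold higher and the median was 0.21.

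Of 22 mesenchymal genes, 11 passed the filter and 10 had a log2 ratio above 0, with a median of 0.62 and 2 (*MMP9* and *ITGA5*) past 2-fold. *PODXL* had 0.97, *MMP14*, a membrane collagenase, 0.94, *MMP2* 0.65, *TNC* 0.61 and *FN1*, fibronectin, 0.53. *COL1A1* was the exception. The TGF-β1 response genes were less apart: 12 of 15 had a log2 ratio above 0, with a median of 0.21, *ITGB6*, an integrin that activates TGF-β, at 0.95 and *SMAD7* at 0.10. In G1 cells 9 of 15 were above 0 and the median was 0.03. The 21 epithelial genes that passed had a median of 0.02, with *CDH1*, E-cadherin, at 0.48, *EPCAM* at -0.29 and the epithelial factor *ELF3* lowest at -0.95.

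Antigen presentation genes were slightly higher. Of 16 HLA class I and peptide loading genes that passed, 13 had a log2 ratio above 0, the median was 0.22 and 1 (*PSMB10*, an immunoproteasome subunit) was at least 2-fold lower at -1.05. *TAP1*, the peptide transporter, had 0.66, *ERAP2* 0.63, *TAPBP* 0.54 and *HLA-C* 0.53. No gene of 12 in the HLA class II list passed the filter. The surface binders of the chemokine, *CD44*, *SDC1* and *SDC4*, had log2 ratios of 0.40, 0.30 and 0.37.

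Of 9 interleukin and colony-stimulating factor genes that passed, 2 (*IL1RN* and *TNFSF15*) were at least 2-fold higher, 7 had a log2 ratio above 0 and the median was 0.39. *IL1A* and *IL1B*, the agonists that the product of *IL1RN* blocks, had 0.39 and 0.64, while *IL11* was lower at -0.77. In G1 cells 7 of the 10 interleukin and colony-stimulating factor genes that passed there were above 0, with a median of 0.37. None was 2-fold higher there, with *IL1RN* at 0.70 and *TNFSF15* at 0.90. Of 14 laminin-332, integrin and squamous genes that passed, 12 had a log2 ratio above 0 with a median of 0.24. The laminin genes *LAMA3* and *LAMB3*, whose products are parts of the basement membrane, had 0.90 and 0.57. In G1 cells the median of that list was -0.04, beside -0.03 over all genes there, so its difference was not seen within 1 phase.

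Genes of the cell cycle were lower throughout their lists. All 26 S phase genes that passed had a log2 ratio below 0, with a median of -0.91 and 11 at least 2-fold lower, and the summed level was 823.4 CPM against 1568. All 26 G2/M genes that passed were also below 0, with a median of -0.75 and 4 at least 2-fold lower. Within the cells called G1 (81 positive and 91 negative), 16 S phase genes passed the filter and their median was -0.46, and 10 G2/M genes had a median of -0.20. Phase was called from these same genes, so the numbers describe how much of the difference remained within 1 phase.

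**Figure D4:**
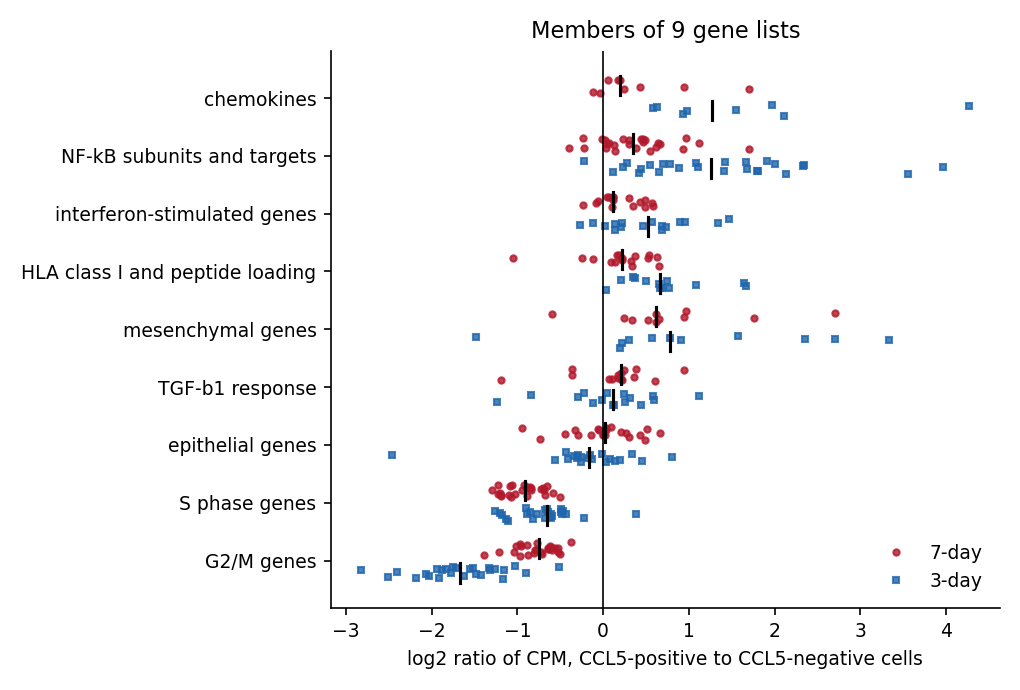
Each point is a gene of 1 of 9 lists that passed the filter in that library, placed by its log2 ratio of CPM in CCL5-positive to CCL5-negative cells (x axis), red for 7-day and blue for 3-day, and black bars are list medians. All S phase and G2/M points of 7-day lie below 0, and the NF-κB medians are 0.34 and 1.26.

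Restricting the whole comparison to G1 cells, with the same filter applied there, left 25 genes at least 2-fold higher and 19 at least 2-fold lower. The number of all genes compared in G1 cells is not given, so these counts have no share beside them. For the G1 counts of the gene lists, only the median over all genes there (-0.03) is at hand. The next counts follow the genes found over all phases without that filter in G1 cells, where *AXL* and *DIAPH3* among others averaged under 10 CPM. Of the 39 genes that were 2-fold higher over all phases, 39 still had a log2 ratio above 0 and 16 were still at least 2-fold higher. *MMP9* had 2.26 (2.05 to 2.48), *CLDN18* 1.90, *PTGS2* 1.58, *CST1* 1.42 and *G0S2* 1.14 in G1 cells. *CCL2* had 0.82 (0.67 to 0.97) and *ICAM1* 0.44 (0.14 to 0.73), below 2-fold. Of the 66 lower genes, 63 were still below 0 and 21 were still at least 2-fold lower, *AXL* at -1.44 (-2.25 to -0.67) and *DIAPH3*, an actin nucleator, at -1.70 among them.

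The 33 CCL5-positive and 608 CCL5-negative cells of the 3-day library, which share no cell with 7-day, were compared by the same rule. Of 7625 genes, 170 (2.23%) were at least 2-fold higher and 157 (2.06%) at least 2-fold lower, and 45.7% had a log2 ratio above 0. Of the 39 genes higher at 7-day, 30 passed the filter at 3-day, all 30 had a log2 ratio above 0 there (median 1.91) and 25 were also at least 2-fold higher, which is 64.1% of the 7-day list and 14.7% of the 3-day list. Of the 66 lower genes, 54 passed and 53 were below 0, and 18 were also at least 2-fold lower (27.3% and 11.5% of the lists). The 3-day groups differed in phase too, with 25 of 33 positive (75.8%) and 301 of 608 negative cells (49.5%) called G1. Their median depths were 49692 and 43950 UMIs. The part of phase in the overlap of the lists was not tested. Over the 7446 genes that passed in both libraries, Pearson's r of the log2 ratios was 0.70 across genes, which are not independent replicates, and 0.80 over the 2644 genes with at least 50 CPM.

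The size of the ratios differed between the libraries. At 3-day *CCL2* was 203.2 against 10.5 CPM (log2 ratio 4.27, 4.04 to 4.50), *ICAM1* 82.2 against 5.25 CPM (3.97), *SLC7A2* 231.6 against 27.6 CPM (3.07) and *MMP9* 100.4 against 9.94 CPM (3.34), all larger than at 7-day. *PTGS2* had 1.68 at 3-day beside 1.70 at 7-day, and *TNFSF15* 0.88 (-1.07 to 2.36) beside 1.51. The cystatins had smaller ratios at 3-day, *CST4* 0.90 (0.63 to 1.16) beside 2.05 and *CST1* 1.44 (1.29 to 1.59) beside 2.02. Of 26 NF-κB genes, 15 were at least 2-fold higher, 25 had a log2 ratio above 0 and the median was 1.26. Other lists were also higher at 3-day, beside a median of -0.04 over all genes. Chemokines had a median of 1.27 (8 of 8 above 0, 4 at least 2-fold higher). HLA class I genes had 0.66 (13 of 13, 3) and interferon-stimulated genes 0.52 (14 of 16, 2). Epithelial, S phase and G2/M genes had medians of -0.17, -0.65 and -1.67. *G0S2* had the largest value of the named genes (6.77), but 1 cell held 58.2% of its UMIs in positive cells. Without the cell that held most *CCL5*, *G0S2* had 5.55, *CCL2* 4.04, the NF-κB median was 1.24, and 154 genes were at least 2-fold higher. The negative cells set part of the contrast: *ICAM1* and *CCL2* were 5.25 and 10.5 CPM in 3-day negative cells and 21.3 and 85.3 CPM in 7-day negative cells. *AXL* (-0.28, -1.51 to 0.74) and *HIST1H4C* (-0.23) were nearer to equal at 3-day than at 7-day. *COL1A1* was further apart, at 23.0 against 64.3 CPM (-1.48, -1.99 to -1.02), as was *CXCL8* at 286.6 against 150.6 CPM (0.93, 0.79 to 1.07). *LGALS1* had 0.33 and *LGALS3* -0.45. *CD274* had 1.02 (-0.36 to 2.15), on 7 UMIs in positive cells. Whether the ratios of the 2 libraries differ beyond the spread between cultures was not tested.

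Positive cells also lay near one another. Among the 15 nearest cells of each 7-day cell, found on 30 principal components without *CCL5* or cell cycle genes, 38.1% were positive for positive cells, 49.0% for cells with 10 or more *CCL5* UMIs, 15.5% for negative cells and 20.1% for cells with 1 UMI, where all cells held 23.3%. The groups also differed in phase (63.3% of positive and 28.7% of negative cells in G1), and the part of phase in this closeness was not tested. The leading genes were not carried by the same cells throughout. Among the 128 positive cells at equal depth, Spearman's rho across cells was 0.70 between *CST1* and *CST4*, 0.34 between *CLDN18* and *MMP9*, 0.40 between *MMP9* and *C15orf48*, and -0.03 between *MMP9* and *G0S2*. The part of shared sequence in the value for *CST1* and *CST4* was not tested.

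Interferon-stimulated genes were slightly higher as a list at 7-day over all phases. Of 50, 16 passed the filter, 13 had a log2 ratio above 0, none was at least 2-fold apart and the median was 0.12. Over all genes 43.7% were above 0 and the median was -0.05. In G1 cells 7 of the 17 interferon-stimulated genes that passed there were above 0. Their median was -0.03, the same as over all genes there. In cells thinned to 18000 UMIs, their summed count had a median of 11 UMIs in positive and 10 in negative cells. A pair of positive cells, singled out after their values were seen, lay far above the rest. They had 55 and 218 such UMIs, while the highest of the 547 other 7-day cells had 34, and the highest cells of Ctrl, 1-day and 3-day had 26, 25 and 27. These 2 cells held 12.5% of all interferon-stimulated UMIs of the 128 positive cells.

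The cell with 55 interferon-stimulated UMIs had 56 *CCL5* UMIs in 83112 UMIs and 3 UMIs of *IFNB1*, which was at 0 in the other 548 cells and in all retained Ctrl, 1-day and 3-day cells. It also had 64 of the 65 UMIs of *CXCL10*, the interferon-induced T cell attractant, in the library, 61 of 89 UMIs of *IFIT2*, 30 of 43 of *IFIT1* and 30 of 78 of *OASL*, all antiviral genes. Its Scrublet score was 0.183 and it was not marked as a doublet. The cell with 218 interferon-stimulated UMIs had 51 *CCL5* UMIs in 19093 UMIs, no *IFNB1* or *CXCL10*, and 39 UMIs of *ISG15*, 28 of *OASL*, 24 of *ISG20* and 18 of *HERC5*, and its mitochondrial share was 10.2%. The 12 other cells with 50 or more *CCL5* UMIs had 4 to 19 interferon-stimulated UMIs, with a median of 11.5, within the range of the other 7-day cells.

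**Figure D5:**
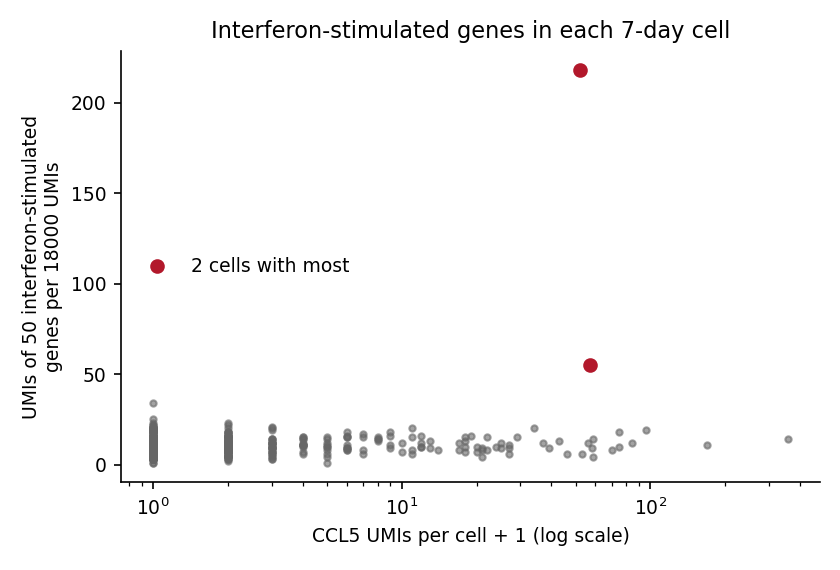
Each point is a 7-day cell, placed by its *CCL5* UMIs plus 1 on a log scale (x axis) and its UMIs of 50 interferon-stimulated genes per 18000 UMIs (y axis). The 2 red cells, at 218 and 55, lie above all others, the next of which has 34.

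Without these 2 cells, *IFIT2* went from 11.8 to 0.160 CPM in positive cells, with 98.7% of its UMIs in the 2 cells, and *OASL* from 10.1 to 0.962 CPM. *IFIT1* went from 6.31 to 0.321 CPM. Among list genes that passed the filter, the log2 ratio of *SAMD9* went from 0.12 to -0.07 and that of *USP18* from 0.10 to -0.11. *STAT2* (0.59 to 0.52) and *GBP3* (0.49 to 0.47) changed less. *CCL2* (281 CPM without them) and *ICAM1* (46.8 CPM) stayed within their counting intervals, and 39 genes were at least 2-fold higher with or without the 2 cells.

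*ICAM1* is an NF-κB list gene higher in the wider positive group. *CXCL10* is an interferon gene with UMIs in 1 of the 2 cells, and *IFIT1* is one with UMIs in both. Promoters of these 3 genes are shown as examples. They are the 250 bases before the transcription start in RefSeq (GRCh38.p14), in lower case, 5′ to 3′ on the gene's strand, with NF-κB motif letters GGANNTTCC and ISRE letters GAAANNGAA (either strand, searched separately and free to overlap) in capitals. *ICAM1* (chr19:10270870-10271119, plus strand) has 1 NF-κB match, *CXCL10* (chr4:76023498-76023747, minus strand) has 1 of each, and *IFIT1* (chr10:89392373-89392622, plus strand) has 2 ISRE matches.
ICAM1: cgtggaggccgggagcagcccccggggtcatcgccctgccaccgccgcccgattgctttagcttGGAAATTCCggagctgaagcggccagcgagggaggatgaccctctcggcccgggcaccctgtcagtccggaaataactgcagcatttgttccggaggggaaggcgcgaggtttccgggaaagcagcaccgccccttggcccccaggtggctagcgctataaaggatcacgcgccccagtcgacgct
CXCL10: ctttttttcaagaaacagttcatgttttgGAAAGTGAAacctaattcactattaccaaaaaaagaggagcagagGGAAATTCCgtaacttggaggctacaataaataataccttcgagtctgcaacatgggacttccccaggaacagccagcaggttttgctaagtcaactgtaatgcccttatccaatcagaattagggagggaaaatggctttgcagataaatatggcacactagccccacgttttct
IFIT1: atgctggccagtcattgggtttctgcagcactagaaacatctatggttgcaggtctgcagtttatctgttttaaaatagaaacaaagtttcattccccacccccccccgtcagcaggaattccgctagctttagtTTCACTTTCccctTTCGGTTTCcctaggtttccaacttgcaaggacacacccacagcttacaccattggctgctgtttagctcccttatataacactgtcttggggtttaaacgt

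The NF-κB letters occur in 3.84% of all 35116 promoters of the table and the ISRE letters in 6.88%. Among 25 matched promoters of the 30 NF-κB subunits and targets, 8 (32.0%) held the NF-κB letters and 6 (24.0%) the ISRE letters. Among 38 matched of the 50 interferon-stimulated genes, 21 (55.3%) held the ISRE letters and 2 (5.26%) the NF-κB letters. Of the 18 named genes at least 2-fold higher in CCL5-positive cells, 11 were matched, of which 1 (*ICAM1*) held the NF-κB letters and 1 (*SLC16A3*) the ISRE letters. *PTGS2*, the other NF-κB list gene past 2-fold, held neither. *CCL5*, *MMP9*, *CCL2*, *CST1*, *CST4*, *C15orf48*, *SLC7A2* and *BMP2* had no matched promoter. A match is a run of letters and does not show that a factor binds there. Lack of a match, as for *PTGS2*, does not show that a site is absent, because sites with other letters were not searched.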

How the data were processed

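Each cell's UMI counts by gene are used as deposited, and the authors made them with Cell Ranger 2.0.1 on GRCh38 without normalization. The matrices were read in barcode order, 572 of 2484 7-day barcodes, and cells were retained with more than 200 genes, at most 20% MT- UMIs and at least 18000 UMIs. UMIs were summed over CCL5-positive and CCL5-negative cells as CPM with exact Poisson intervals, and log2 ratios had exact conditional intervals, over genes with an average of at least 10 CPM. Shares at equal depth, phases and per-cell sums used cells thinned to 18000 UMIs without replacement (seed 1). Phases and Scrublet were run in scanpy 1.11.5, with doublets retained. The steps were tested on simulated counts. With 1 library per time point no test was made. The named genes are the 15 highest and 15 lowest log2 ratios among genes averaging at least 20 CPM, members of the gene lists past 2-fold, *LGALS3*, *LGALS1*, *CD274*, *COL1A1*, *CXCL8* and *G0S2*, and genes within 1 Mb of *CCL5*. *IFNB1*, *CXCL10* and other genes of single cells were named after their values were seen. The cells and gene lists were chosen with earlier results of these data known. Positions are from GENCODE release 44. The alternatives were other *CCL5* limits, thinning, other filters and scaling, and subsets of the cells. Some genes are not reported here.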

Additional observations from a re-analysis of the deposited data

Results flagged for a closer look

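*IFNB1* was flagged because it gave a signal though it was below the filter of 10 CPM and at 0 in the 844 Ctrl cells: 3 UMIs at 7-day, all of them in 1 cell. The 1-day library, which the comparisons did not use, held 48 *CCL5* UMIs in 900 cells, above the 4 UMIs of the 844 Ctrl cells, and 1 cell held 31 of them (64.6%).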

How the results depend on the processing

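No paired analysis was possible because each time point has 1 library. The share of CCL5-positive cells (23.3%) was 15.3% after thinning. The counts of genes at least 2-fold higher (39) and lower (66) depended on the groups and on depth: they were 15 and 0 with 1 or more *CCL5* UMIs as positive, 67 and 157 with 5 or more, 66 and 125 with each cell thinned, 25 and 19 in G1 cells, 72 and 100 in G1 cells each thinned (added after the data were seen), 15 and 17 with at least 50 CPM and 89 and 159 with at least 3 CPM. The lower count was 168 with groups set after thinning and 155 among the later cells by barcode order (51 among the earlier cells). The cause was not tested, although thinning and fewer cells leave fewer UMIs per gene and the CPM limit sets how many genes are compared. The median of HLA class I genes was 0.0743 with 1 or more UMIs as positive, and that of interferon-stimulated genes -0.0336 in G1 cells. *AURKB* changed sign in G1 cells (0.0616), and in thinned G1 cells so did *AURKB* (0.49), *RFC2* (0.17), *FEN1* (0.38) and *HMGB2* (0.0577). Among named genes under 2-fold, the ratios of *CD274* (-0.28 to 0.72), *LGALS1* (-0.53 to 0.38) and *CXCL8* (-0.24 to 0.37) also lay on both sides of 0 over the alternatives. All 18 named genes at least 2-fold higher kept a ratio above 0 under every alternative run, and 8 of them kept 2-fold, while 24 of 28 lower genes kept their direction and 0 kept 2-fold. The other 82 values for the main results stayed within 1.5 times a count or within the interval of a median or share. Depth, 1 library and part of the barcodes limit these values.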
